A study of Rattus norvegicus with 8 samples.

Results

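The RUNX transcription factors Runx1, Runx2 and Runx3 and their shared partner Cbfb were followed in the immature rat ovary. The set was proposed with earlier results of the same arrays in view, and every probe bearing one of the 4 gene names was taken. They are measured by 6 of the 30367 non-control probes of the array, on 10 of its 58717 non-control spots. Runx2 has 3 probes and each of the other genes has 1. Of 26214 probe names in the array files (genes or transcripts) the set is thus 4. The set was chosen by values of the PMSG against control contrast, so those values are given below as a description, with no test.

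RUNX proteins are the DNA-binding subunit of core-binding factor. They hold DNA through the runt domain, and Cbfb, which does not touch DNA itself, binds the runt domain and raises its affinity. Runx1 is best known from blood formation, Runx2 from bone and cartilage, and Runx3 from T cells and sensory neurons. In the ovary, Runx1 and Runx2 are known to be induced in granulosa cells by the ovulatory luteinising signal, and both act with Cbfb in the conversion of the ruptured follicle to a corpus luteum.

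The study measured whole-ovary RNA from female rats on 1-colour arrays, 4 labelled PMSG and 4 labelled control. PMSG, pregnant mare serum gonadotropin, acts mainly as follicle-stimulating hormone and is used to start synchronous follicle growth before puberty. Animals of 26 days received 50 IU of it under the skin in 0.2 ml of phosphate-buffered albumin, or that buffer alone as control, and ovaries were collected after 48 h, at 28 days. All arrays received cRNA made from 500 ng of RNA and labelled with Cy3. The labels name no mutant allele, no transgene and no further hormone such as human chorionic gonadotropin in either group. They do not say whether each array is 1 animal, so all p-values below measure only the spread between these arrays. Directions follow the sample titles. Some genes whose response to PMSG is textbook knowledge, such as Cyp11a1 and Lhcgr below, moved the opposite way, so groups are called by their labels throughout. Whether the titles match the treatment each array received was not tested. If the titles of the 2 groups were exchanged, the sign of every difference below would turn and each decrease and its rank would be an increase, while the sizes would stay.

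The 75th percentile of the signal, by which each array was scaled, ran from 769 to 1103 over the 8 arrays, lowest on array 3 labelled PMSG, and 80.8% to 84.6% of probes were well above background. Correlations between arrays across probes were 0.987 to 0.993 among arrays labelled control, 0.977 to 0.991 among arrays labelled PMSG and 0.960 to 0.972 between the labels. The tissue label was set against fixed marker genes. All 11 granulosa and theca cell markers and all 8 oocyte markers were measured, and their summed levels per array are given further on.

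The sequences of the probes that carry the Runx2 and Runx3 results are shown before the values, because each probe reads 1 short stretch of its transcript and the 3 Runx2 probes did not behave alike. Positions are on rat build rn4, as the array files give them, and the number after each name is the first transcript base covered, counted as in the array files. The probes at bases 957 and 1708 of Runx2 and at base 471 of Runx3 are shown whole, 60 bases each, all in lower case since no motif is marked. The probe at base 5544 lies far beyond the others in the transcript, whether in its coding part was not read from an annotation, and only its first 30 bases are given, while its coordinates span the whole probe.
Runx2 base 957, chr9:11945923-11945982, plus strand: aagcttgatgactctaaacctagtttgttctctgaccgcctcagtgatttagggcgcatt
Runx2 base 1708, chr9:12021264-12021323, plus strand: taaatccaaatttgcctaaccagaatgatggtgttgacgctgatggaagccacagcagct
Runx2 base 5544, chr9:12025100-12025159, plus strand: gggactatttgtattgtatgttgcaactgt
Runx3 base 471, chr5:153960706-153960765, plus strand: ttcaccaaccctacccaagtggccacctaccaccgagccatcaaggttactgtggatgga
No other probe of the array shares a run of 20 bases with any of the 6 member probes on either strand. The remaining probes are Runx1 base 1816 at chr11:32623591-32623650 on the minus strand and Cbfb base 2064 at chr19:35028605-35028664 on the plus strand.

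Runx2, the factor known as the master regulator of bone-forming cells, held the widest difference of the set, and it was read by its probe at base 5544. On the scale used here, log2 signal minus the array's 75th percentile, this probe stood at 3.00, 2.44, 2.85 and 2.78 on arrays 1 to 4 labelled control. On arrays 1 to 4 labelled PMSG it stood at -2.27, -2.25, -3.25 and -2.47. Every control-labelled array was high and every PMSG-labelled array was low, with a gap of 4.70 between the nearest arrays of the 2 labels. The difference of means was -5.33 (SE 0.24), a 40.2-fold lower signal in arrays labelled PMSG, which ranks 6 among the decreases of all 25303 tested probes. In unscaled processed signal the spread ran from 5738 to 8340 units in arrays labelled control and from 80.8 to 215 units in arrays labelled PMSG, and the probe was well above background on all 8 arrays. Its 2 spots per array differed little, with an SD between spots of 0.076. Array 3 labelled PMSG was the lowest, and without it the difference was -5.10.

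The other 2 Runx2 probes gave another picture. At base 957 the levels were -3.25, -3.42, -3.12 and -3.20 in arrays labelled control and -3.54, -4.18, -3.42 and -4.49 in arrays labelled PMSG. Arrays 1, 2 and 4 labelled PMSG lay below every control-labelled array, while array 3 labelled PMSG fell inside their range, just above the lowest. The difference there was -0.66 (SE 0.24). At base 1708 the levels were -3.30, -4.27, -3.21 and -4.36 in arrays labelled control and -4.37, -4.09, -3.70 and -4.44 in arrays labelled PMSG. The groups overlapped and the difference was -0.36 (SE 0.31), moving to -0.20 without array 1, -0.17 without array 3 and -0.55 without array 4 labelled control. Under normexp background correction the differences were -0.32 at base 957 and -0.12 at base 1708, and with quantile scaling base 1708 gave -0.60. Both probes were dim but well above background on all 8 arrays, with processed signals of 48.1 to 120.4 units at base 957 and 47.6 to 108 units at base 1708.

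The arrays sit in 2 rows of 1 slide, each row holding 2 arrays of each label, and the probe at base 1708 followed the row among the controls: arrays 1 and 3, in row 2, were the high ones, and arrays 2 and 4, in row 1, the low ones. Its difference was 0.42 within row 1 and -1.15 within row 2. The probe at base 5544 gave -5.36 in row 1 and -5.30 in row 2, so its difference was as large within each row. Whether the row had a part in the values at base 1708 was not tested.

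**Figure D1:**
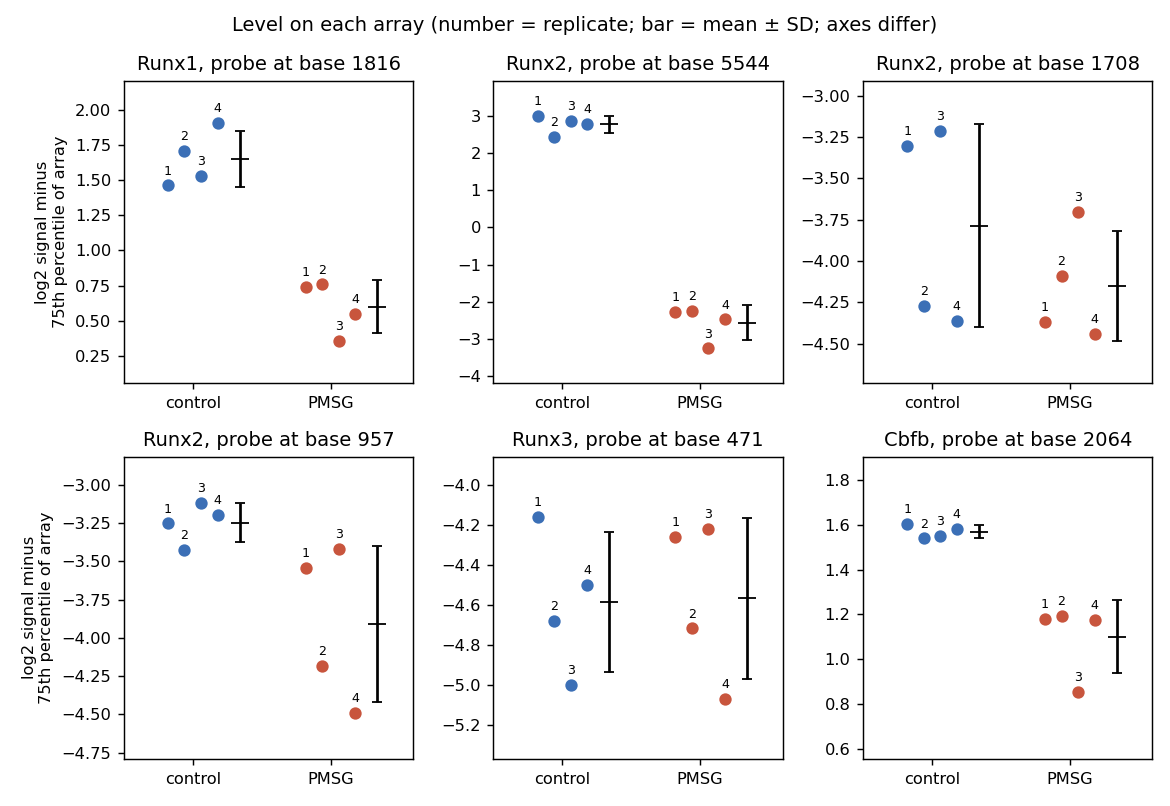
Level of each of the 6 probes on each array, as log2 signal minus the array's 75th percentile (vertical axes differ between panels); numbers are replicates, and the bar is the mean ± SD of 4 arrays. The groups stand apart for Runx1, for the Runx2 probe at base 5544 (3.00 to 2.44 against -2.25 to -3.25) and for Cbfb, and overlap for the other Runx2 probes and for Runx3.

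The distance between the Runx2 probes on the transcript and on the genome shows what lies between them. Bases 957 and 1708 are 751 bases apart in the transcript and 75341 bases apart on chromosome 9, so introns separate them. Bases 1708 and 5544 are 3836 bases apart on both, so those 2 probes lie on 1 uninterrupted stretch of transcript with no intron between. The difference between labels at base 5544 was nevertheless 4.97 log2 units further down than at base 1708 and 4.67 further down than at base 957, while the dim probes were 0.30 apart. Signals of different probes depend on how well each binds, so their levels are not compared as amounts of RNA, only their differences between labels. How large a fall can be seen is limited at the dim probes, where control-labelled signals were low. Control-labelled arrays read only 98.4 to 120 units at base 957 and 53.7 to 108 units at base 1708. A 40.2-fold fall could thus not be measured in full there. The nearest other tested gene on chromosome 9, Clic5, starts its probe 345255 bases beyond the one at base 5544, and its difference was 0.34 (adjusted p = 0.0637). Which Runx2 transcripts carry each stretch was not tested.

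**Figure D2:**
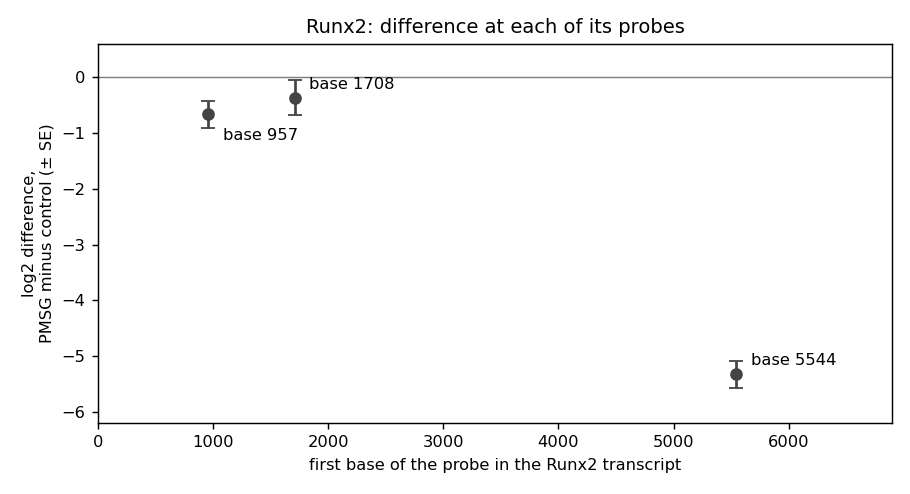
Difference between labels (log2, PMSG minus control, ± SE, 4 arrays per label) at each Runx2 probe, against the first base the probe covers in the Runx2 transcript. The probes at bases 957 and 1708 lie at -0.66 and -0.36, and the probe at base 5544 at -5.33.

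Among the 2646 named genes with more than 1 tested probe, the median range of log2 differences between probes of a gene was 0.27, and 18 genes had a range over 2. Runx2, at 4.97, had the widest range of them all, a range set in part by its dim probe at base 1708. Next came Ctnna3, a catenin of cell adhesion, at 4.72, then Il1rl1, the interleukin 33 receptor, at 4.67. Il1rl1 is thus near Runx2 in this respect, and its lower probe appears again below among the profiles nearest to Runx2.

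**Figure D3:**
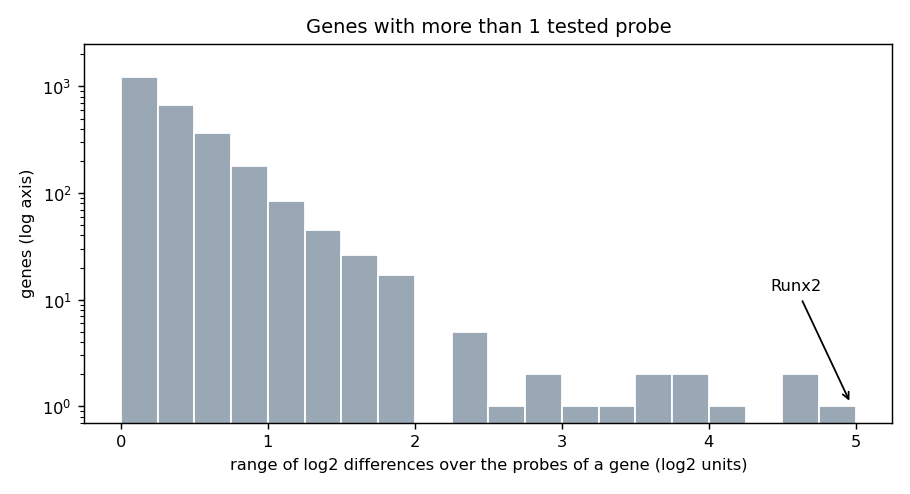
Number of genes (log axis) by the range of the log2 difference between labels over the tested probes of the gene, for the 2646 genes with more than 1 such probe. Nearly all genes lie under 2, and Runx2, at 4.97, is in the last bin.

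Runx1, the blood-forming member, was lower in every array labelled PMSG. Its probe stood at 1.46, 1.71, 1.53 and 1.91 in arrays labelled control and at 0.74, 0.76, 0.36 and 0.55 in arrays labelled PMSG. The lowest control-labelled array lay 0.70 above the highest PMSG-labelled one. The difference was -1.05 (SE 0.14), a 2.07-fold lower signal, and 4.93% of all tested probes had a lower difference. Leaving out single arrays moved it between -1.11 and -0.97.

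Runx3 was the dimmest of the set and showed no separation. It stood at -4.16, -4.68, -5.00 and -4.50 in arrays labelled control and at -4.26, -4.72, -4.22 and -5.07 in arrays labelled PMSG. The ranges of the 2 labels covered nearly the same interval, and the means were -4.58 ± 0.35 and -4.57 ± 0.40 (SD, n = 4 each). The difference was 0.016 (SE 0.24), and its sign turned with the array left out, from -0.12 to 0.18, and with the scaling, to -0.22 with quantile scaling and -0.15 with median centring. Its processed signal was 31.3 to 58.4 units on 1 spot per array.

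Cbfb, the partner all 3 RUNX proteins share, was lower in every array labelled PMSG, by less than Runx1. Its levels were 1.61, 1.54, 1.55 and 1.58 in arrays labelled control, the narrowest spread of any member at 0.029 (SD, n = 4). Arrays labelled PMSG stood at 1.18, 1.19, 0.85 and 1.18, array 3 being apart from the other 3. The difference was -0.47 (SE 0.10), a 1.38-fold lower signal, and -0.39 without array 3. Centring arrays on the median in place of the 75th percentile gave -0.64.

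Across the 6 probes, 5 had a lower mean in arrays labelled PMSG. The labels did not overlap at 3 probes, those of Runx1, Runx2 base 5544 and Cbfb, all lower in arrays labelled PMSG. Among all 25303 tested probes the labels did not overlap at 36.6%, with 18.6% lower and 17.9% higher. The same 3 member probes are past the adjusted threshold of 0.05, against 34.2% of all tested probes (16.6% lower and 17.6% higher). Nothing is read from either count, because the set was chosen on this contrast. In whole-ovary RNA, fewer cells of a type and less RNA per cell cannot be told apart.

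RUNX genes have a distal and a proximal promoter, and the core-binding-factor motif, TGTGGT, is known to occur in RUNX promoters themselves. The 300-base windows from 250 bases before to 50 after each start in RefSeq (build GRCr8) were searched for TGTGGT and, as its main variant, TGCGGT, on both strands. Windows were found for all 4 genes, 6 in all. Runx2 and Runx3 each had a distal and a proximal window. Runx1 had a single window, and which of its promoters that covers was not determined, so its other promoter was not searched. The Runx2 distal window held 3 matches to TGTGGT and 1 to TGCGGT, and the Runx3 distal window held 2 to TGTGGT. The proximal windows of Runx2 and Runx3 and the windows of Runx1 and Cbfb held neither motif. Of all 33469 windows of this length, 17.3% held TGTGGT, 2.02% held it at least 2 times and 6.39% held TGCGGT. The 250 bases before the distal Runx2 start are shown because Runx2 is the member with the widest difference. Capitals mark the match, which reads ACCACA on this strand.
Runx2 distal promoter, chr9:23664808-23665057, GRCr8, plus strand: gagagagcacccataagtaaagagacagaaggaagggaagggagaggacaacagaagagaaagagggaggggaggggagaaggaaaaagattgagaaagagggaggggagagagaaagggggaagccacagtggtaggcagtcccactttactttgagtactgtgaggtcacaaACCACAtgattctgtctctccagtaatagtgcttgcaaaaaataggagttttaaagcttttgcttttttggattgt
The other matches of Runx2 lie from base 21 to base 50 after the start, and those of Runx3 lie before its start. They are set side by side because both genes carry 2 copies of ACCACA with the same spacing. Capitals mark ACCACA and TGCGGT.
Runx2, chr9:23665078-23665107, GRCr8, plus strand: acaaacaACCACAgaACCACAagTGCGGTg
Runx3, chr5:152644129-152644158, GRCr8, plus strand: ccctcaACCACAgaACCACAaggccaggcc
The shared stretch of 14 bases, ACCACAGAACCACA, was searched for after these windows had been seen, on both strands. Of the 33469 windows 2 held it, the distal windows of Runx2 and Runx3. The single Runx1 window searched did not, nor did that of Cbfb. A match is a description of the letters and not evidence of binding.

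The profiles most like each member were taken by the root mean square difference from its own profile over the 8 arrays, after each probe's mean was removed, among 17745 tested probes with a gene symbol. Nearest to the Runx2 probe at base 5544 were Vtcn1, an inhibitory ligand of T cells (0.516 log2 units), Il1rl1 (0.534), Ereg, an epidermal growth factor family ligand (0.566), and A2m, a broad protease inhibitor (0.638). Vtcn1 was lower by a log2 difference of -4.45, Il1rl1 by -4.75 and A2m by -4.51. Ereg was well above background on all 4 control-labelled arrays and on none labelled PMSG, so its signal was at least 18.3-fold lower there on this scale. These genes were picked for likeness over the same arrays, so falls of like size follow from the choice. Distances are not scaled to the size of a profile, so they are not compared between members. Around Cbfb the nearest were Sh2b3 (0.0325), Gnai3 (0.0435), Maged2 (0.0530) and Zdhhc20 (0.0537). Nearest to Runx1 were Vps45 (0.0820), Dnajc3 (0.0959), Rbms1 (0.104) and Slc39a6 (0.107). Nearest to Runx3 were Zbtb12 (0.103), Anapc11 (0.116), Gins3 (0.133) and Amer1 (0.136).

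Other genes of the pathway were read from 4 lists, each gene by its brightest probe, with limma's adjusted p over all 25303 tested probes. The lists were chosen with earlier results of these arrays known, so their counts are a description only. Of all tested probes 34.2% passed, 16.6% lower and 17.6% higher in arrays labelled PMSG. The first list holds proteins that bind, modify or restrain RUNX factors. Of 37 tested genes, 9 were higher and 5 lower in arrays labelled PMSG (37.8% in all), and the median log2 difference was 0.084, against 0.11 over all tested probes. Tle2, a Groucho corepressor that binds the RUNX C-terminus, rose by 0.96 (SE 0.10, adjusted p = 3.63e-04). Kmt2a, a histone methyltransferase that binds Runx1, named Mll1 in the array files, rose by 0.84 (SE 0.14, adjusted p = 0.00262). Twist2, whose product masks the Runx2 runt domain, fell by 0.84 (SE 0.26, adjusted p = 0.0365). Msx2, a homeobox repressor in bone, rose by 2.11 (SE 0.69, adjusted p = 0.0462) but was well above background on 3 of 4 control-labelled arrays. On this scale the bound was 4.04-fold higher, and under normexp background correction the log2 difference of Msx2 was 0.94. Dlx5, an activator of Runx2 in bone, had a log2 difference of 1.36 (SE 1.15, adjusted p = 0.379) and did not pass. Among the other genes lower in arrays labelled PMSG were Wwtr1 (-0.44), Hdac1 (-0.43) and Hdac3 (-0.35). The list's direction depended on the scale: with arrays centred on the median, 3 genes were higher and 6 lower. Without array 1 or array 4 labelled control, 9 of the 37 genes passed. With the slide row as a block, 9 genes were higher and 2 lower, and Twist2 (adjusted p = 0.0547), Hdac3 (0.0610) and Wwtr1 (0.0504) did not pass.

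The second list holds genes known to depend on Runx1, Runx2 or Cbfb in granulosa cells and the corpus luteum. Because the list was chosen with earlier results of these arrays known, its count and median are not independent evidence. Of 20 tested genes, 4 were higher and 13 lower in arrays labelled PMSG (85%, against 34.2% of all tested probes). The median log2 difference was -1.62, against 0.11 over all tested probes. With Ptgfr, well above background on no PMSG-labelled array, set at its bound, the median was -1.48. The other genes kept their values there. Under normexp background correction the median was -0.79. The count stayed between 15 and 19 when single arrays were left out. Cyp11a1, the enzyme that opens steroid synthesis from cholesterol, was at 6.59 ± 0.10 in arrays labelled control and at 3.24 ± 0.70 in arrays labelled PMSG (SD, n = 4 each). It fell by 3.36 (SE 0.31, adjusted p = 2.32e-04). Fabp6, a bile acid binding protein, fell by 6.87 (SE 0.42, adjusted p = 5.09e-05), from 4.36 ± 0.34 to -2.51 ± 0.91 (SD, n = 4 each). This was the gene of the list with the widest difference measured on all 8 arrays. Rgc32, a cell cycle regulator named Rgcc in the array files, fell by 2.49 (SE 0.15, adjusted p = 4.73e-05).

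Genes of the luteal phase were among those that fell. Akr1c18 codes for the enzyme that inactivates progesterone. The probe, named Akr1c3 in the array files, was well above background on all 4 control-labelled arrays and on 1 labelled PMSG. On this scale its signal was at least 247.3-fold lower in arrays labelled PMSG (adjusted p = 1.16e-05). Under normexp background correction its log2 difference was smaller, at -5.44. Its resemblance to other members of the aldo-keto reductase family leaves the gene uncertain. Ptgfr, the receptor for the luteolytic prostaglandin, was well above background on no PMSG-labelled array and was at least 3.14-fold lower on this scale (adjusted p = 4.09e-05). Under normexp background correction its log2 difference was smaller, at -0.53. Lhcgr, the luteinising hormone receptor, fell by 1.93 (adjusted p = 0.00114) and Prlr, the prolactin receptor, by 2.15 (adjusted p = 4.35e-04), both chosen after their values were seen. The 4 genes higher in arrays labelled PMSG were Abcb1b (2.30), Ptgs1 (0.98), Sfrp4 (0.89) and Hapln1 (0.42). Abcb1b and Abcb1a are near-identical transporter genes that ran opposite ways, Abcb1a at a log2 difference of -2.03, so how the signal of each probe splits between them is uncertain. Mmp13, Ccrl2 and Ptgds did not pass, at -0.40, 0.35 and 0.74. Ptgs2, which makes the prostaglandins of ovulation, was too dim to test, and Edn2 was not analysed here.

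The third list holds targets of Runx2 in bone and cartilage. Of 22 tested genes, 5 were higher and 1 lower in arrays labelled PMSG (27.3%), and the median log2 difference was 0.32. Tnfrsf11b, osteoprotegerin, the decoy receptor that restrains bone resorption, rose by 1.43 (SE 0.19, adjusted p = 8.34e-04). Spp1, osteopontin, a secreted matrix protein of bone and of macrophages, rose by 1.43 (SE 0.36, adjusted p = 0.0161). Enpp1, which makes the mineralisation inhibitor pyrophosphate, fell by 1.38 (SE 0.41, adjusted p = 0.0312). Fgfr3, a growth factor receptor of cartilage, rose by 0.62 (adjusted p = 0.0143), and Lgals3 and Tgfbr1 rose by 0.44 each. Sost, the bone formation inhibitor sclerostin, had a difference of 0.67 (adjusted p = 0.178) and did not pass. With arrays centred on the median, 2 genes were higher and 2 lower, and without array 1 labelled PMSG 3 genes passed.

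The fourth list holds targets of Runx1 and Runx3 in blood cells. Of 25 tested genes, 9 were higher and 2 lower in arrays labelled PMSG (44%), and the median log2 difference was 0.33. The 2 lower genes code for factors of red cell and platelet formation: Nfe2 fell by 2.82 (SE 0.24, adjusted p = 1.65e-04) and Lmo2 fell by 1.16 (SE 0.18, adjusted p = 0.00176). Meis1, a homeobox partner of Hox proteins, rose by 0.96 (SE 0.12, adjusted p = 8.24e-04). Cd4, the T helper cell coreceptor, rose by 1.1 (SE 0.31, adjusted p = 0.0254), and Ikzf1, the lymphoid factor Ikaros, by 0.95 (SE 0.29, adjusted p = 0.0334). With the slide row as a block Ikzf1 did not pass (adjusted p = 0.0513). The count was 5 to 7 without array 1, 2 or 3 labelled control or without array 1, 2 or 3 labelled PMSG.

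Some of these calls were lost when a single array was left out. Such a fit also has fewer arrays, so a call near the threshold can be lost without that array being unusual. Over these fits 6552 to 11382 probes passed, against 8658 with all arrays, the most without array 4 labelled PMSG. Tle2, Kmt2a, Cyp11a1, Fabp6, Rgc32, Akr1c18, Ptgfr, Lhcgr, Prlr, Tnfrsf11b, Spp1, Nfe2, Lmo2 and Meis1 passed without any 1 of the 8 arrays. The call of Ikzf1 was lost without any 1 of 7 arrays, all but array 4 labelled PMSG. Twist2 was lost without array 2, 3 or 4 labelled control or 1, 2 or 3 labelled PMSG, and Hdac3 and Wwtr1 were lost in 6 cases each. For Hdac3 this was without any 1 control-labelled array or without array 1 or 3 labelled PMSG. For Wwtr1 it was without any 1 control-labelled array or without array 2 or 3 labelled PMSG. Msx2 was lost without array 1, 2 or 4 labelled control or 1 or 4 labelled PMSG, and Cd4 without array 1, 2 or 4 labelled control or 1 or 3 labelled PMSG. Enpp1 was lost without array 1, 2 or 3 labelled control or 1 or 2 labelled PMSG, and Tgfbr1 without array 1, 3 or 4 labelled control or 1 or 2 labelled PMSG. Lgals3 was lost without array 2 or 4 labelled control or 1 or 2 labelled PMSG, and Hapln1 without array 2 or 4 labelled control. Over all alternatives run, the adjusted p of the genes named here as lost reached at most 0.110, except for Hapln1 (0.561), Tgfbr1 (0.270) and Lgals3 (0.205). Sost passed without array 4 labelled PMSG.

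**Figure D4:**
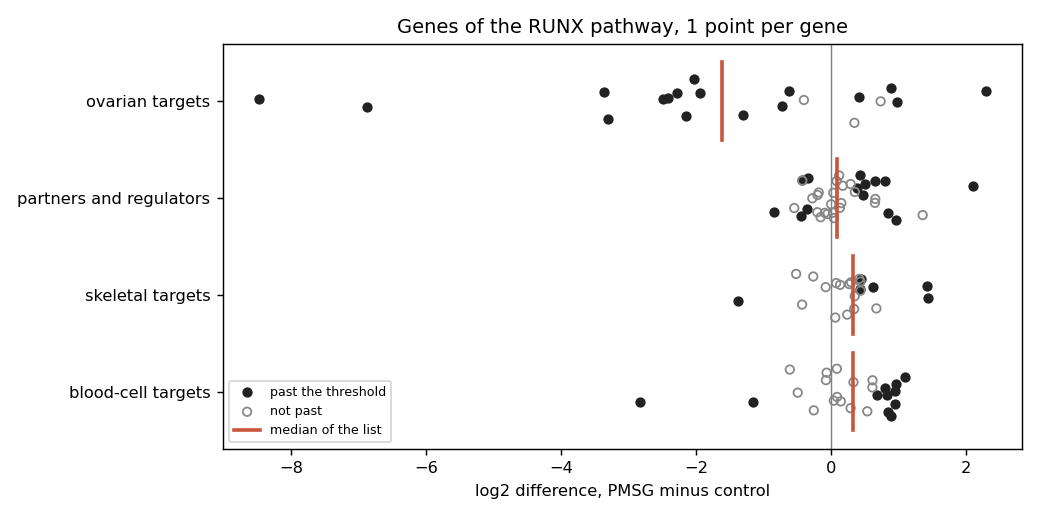
Log2 difference between labels (PMSG minus control) for each tested gene of the 4 lists, 1 point per gene at its brightest probe; filled points are past the adjusted threshold of 0.05 and the upright bar is the list's median. The ovarian targets have their median at -1.62, and the other lists have theirs at 0.084, 0.32 and 0.33.

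In the promoters of these lists, the motif was counted in the same way. TGTGGT was held by 5 of 21 windows of the ovarian list (23.8%), 7 of 20 of the blood-cell list (35.0%), 2 of 16 of the skeletal list (12.5%) and 1 of 36 of the partner list (2.78%), beside 17.3% of all windows. TGCGGT was held by 4 windows of the ovarian list (19.0%), 1 of the blood-cell list (5.0%), 2 of the skeletal list (12.5%) and 1 of the partner list (2.78%). Its share of all windows was 6.39%. Cyp11a1 held 1 match to TGTGGT and Fabp6 held neither motif, while Rgcc held 2 matches to TGCGGT.

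Markers of blood, skeletal, endothelial and ovarian cell types were read beside the members. Of 13 leukocyte markers, 6 rose and 0 fell in arrays labelled PMSG, and their summed level ran from 4.69 to 4.96 in arrays labelled control and from 4.97 to 5.21 in arrays labelled PMSG. Lyz2, the brightest, had a difference of 0.058 (adjusted p = 0.685) and Laptm5 rose by 0.64 (adjusted p = 0.00248). Of 7 tested megakaryocyte and platelet markers 1 rose, Itga2b, by 1.30 (adjusted p = 4.94e-04), while Pf4 had a difference of 0.71 (adjusted p = 0.0835), and the summed level was 0.74 to 1.26 against 1.41 to 1.82.

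Of 9 osteoblast and chondrocyte markers, 5 were tested, and Ibsp, Dmp1, Acan and Matn3 were not above background on enough arrays. The only call was Matn1, which fell by 1.15. Sp7 (0.42), Col9a1 (0.37), Bglap (0.35) and Col2a1 (0.30) were well above background on all 8 arrays and did not pass. The summed level was -0.93 to -0.68 in arrays labelled control and -0.97 to -0.13 in arrays labelled PMSG. Those ranges overlapped. Of 8 endothelial markers 4 fell and 1 rose, with summed levels of 4.39 to 4.61 against 4.09 to 4.21. Kdr fell by 0.43 (adjusted p = 0.00948) and Pecam1 had a difference of -0.16. Of 11 granulosa and theca cell markers 2 rose and 2 fell, with overlapping sums of 8.15 to 8.46 and 7.78 to 8.29. Amh, anti-Müllerian hormone, rose by 3.03 (adjusted p = 2.61e-04) and Insl3, a theca cell hormone, rose by 2.60 (adjusted p = 3.47e-04). Star, which brings cholesterol into mitochondria, fell by 2.75 (adjusted p = 0.00541) and Inhbb, an inhibin subunit, fell by 0.57 (adjusted p = 0.0478), a call lost without any 1 of 7 arrays, all but array 3 labelled control. Hsd3b1 and Inha, the brightest of the list, had differences of 0.07 and -0.39 and did not pass. All 8 oocyte markers rose, Zp3 by 1.94 and Zp1 by 1.89, with sums of 1.52 to 2.36 against 3.30 to 4.43. Pf4 passed without array 3 labelled control or array 4 labelled PMSG, Inha without array 3 labelled control, and Col9a1 and Col2a1 without array 4 labelled PMSG. The part of any of these cell types in the levels of Runx1, Runx2 or Cbfb was not tested.

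**Figure D5:**
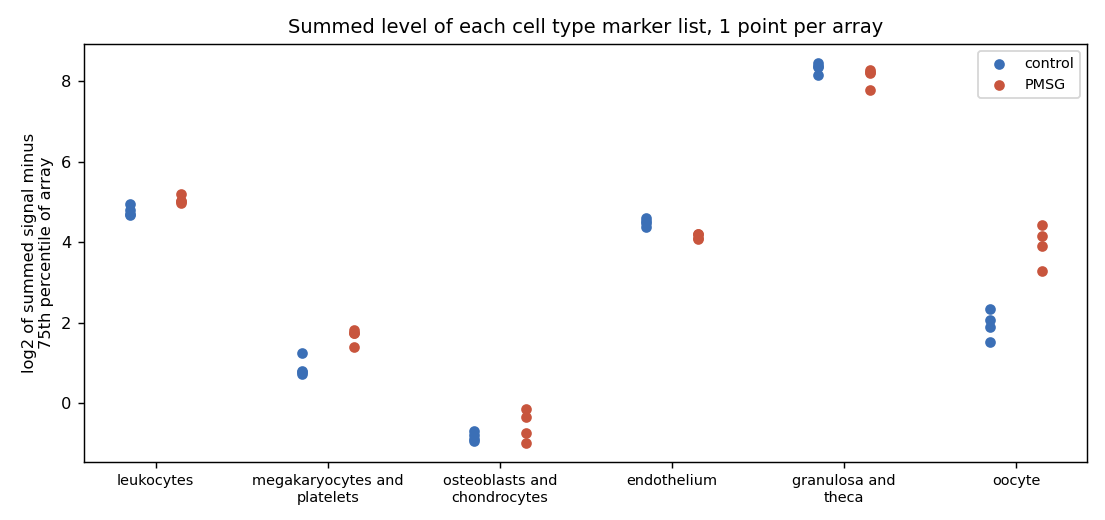
Summed level of each cell type marker list on each array (log2 of the summed signal minus the array's 75th percentile), 1 point per array, 4 per label. Arrays of the 2 labels stand apart for megakaryocytes and platelets, endothelium and oocyte (1.52 to 2.36 against 3.30 to 4.43). They do so only narrowly for leukocytes (at most 4.96 against at least 4.97), and overlap for the other 2 lists. The sums were not recomputed with other scalings.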

How the data were processed

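Agilent Feature Extraction 11.5.1.1 made the spot intensities, per the file headers, and probe coordinates are on rn4. A log2 table that the authors deposited beside the scanner files served as an alternative. Set against the scanner files it holds log2 signal less the 75th percentile of the array, each column matching its own array best. After control and outlier spots were dropped, the log2 processed signals of the spots of a probe were averaged, for 30350 probes. A probe was tested where at least 0.5 of its spots were well above background on at least 4 of 8 arrays (25303 probes). The test was limma 3.58.1 (R 4.3.3) without covariates, with Benjamini-Hochberg adjustment and a threshold of 0.05. The number of arrays, 4 per group, limits precision. The procedure was run on simulated data with far fewer changed probes than were called here. Its error rate on the real arrays was not measured. Members and gene lists were chosen with earlier results of these data known. Named are all member probes, the 5 genes of each pathway list with the largest absolute difference, the 2 brightest of each marker list and the 4 nearest profiles of each member; others are named where a count was small or as marked, and 1 gene is not reported here. Gene names are those of the files or RefSeq synonyms. A bound compares the brighter group with the lowest signal well above background. It holds on the main scale only, and another background correction can give a smaller difference. Correlations of same-numbered arrays' deviations were 0.0444, 0.0361, 0.183 and -0.0192, so numbers were not taken as pairs. Alternatives were other scalings, background corrections, filters, blocks, weights and left-out arrays.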

Additional observations from a re-analysis of the deposited data

Results flagged for a closer look

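In 9 of 108 groups of 4 arrays examined, 1 array lay far from the other 3, by a gap, as a share of the group's range, above Dixon's critical value; chance gives about 1 in 20, or 5.4 groups. Among the members this was Cbfb, for which array 3 labelled PMSG stood at 0.85 and the others at 1.18 to 1.19 (gap 0.947 of the range). The same array stood apart for 4 other genes: Tnfrsf11b (-1.04 against -0.39 to -0.30, gap 0.869), Sh2b3 (0.41 against 0.73 to 0.77, gap 0.879), Laptm5 (2.52 against 2.42 to 2.43, gap 0.903) and Lyz2 (4.32 against 4.05 to 4.07, gap 0.921). Sh2b3 was picked as the profile nearest to Cbfb over these arrays, so it is not a case separate from Cbfb. Array 4 labelled PMSG stood apart for Hsd3b1 (6.69 against 7.12 to 7.18, gap 0.868). Among arrays labelled control, array 3 stood apart for Dlx5 (-2.14 against -5.95 to -5.36, gap 0.845), and array 4 for Lmo2 (-0.73 against -1.27 to -1.23, gap 0.931) and Zdhhc20 (-1.63 against -1.78 to -1.76, gap 0.831).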

How the results depend on the processing

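Of 244 recomputed values, 229 stayed within a margin. The margin was 1 SD between arrays for member probes and 1.5 times for counts. For the median over all tested probes and the share of differing probes that were lower, it was a fixed width. Within its margin of 1 SD Runx3 changed sign under quantile scaling (-0.22) and median centring (-0.15), and without some single arrays. Centring on the median put Cbfb at -0.64, the median of all tested probes at -0.054 in place of 0.11, the share of differing probes that were lower at 65.5% in place of 48.6%, and 9 partner genes past the threshold in place of 14. Normexp background correction put the Runx2 probes at bases 5544, 957 and 1708 at -4.87, -0.32 and -0.12. With the replicate number as a block, 7 partner genes passed. The labels do not say whether the numbers pair the arrays, and they were not taken as pairs. Leaving out single arrays gave 9 to 18 partner genes, 5 to 12 blood-cell targets and 3 to 7 skeletal targets; the lowest partner counts came without array 1 or 4 labelled control, and the lowest skeletal count without array 1 labelled PMSG. Among calls of named genes, quantile scaling ended those of Hapln1, Msx2 and Kdr; median centring those of Hapln1, Msx2, Fgfr3, Tgfbr1 and Lgals3; normexp those of Hapln1, Twist2 and Matn1; the deposited values that of Msx2; no filter on dim probes those of Msx2, Hdac3 and Inhbb; and array weights that of Inhbb. The slide row as a block ended Twist2, Hdac3, Wwtr1 and Ikzf1, and the replicate block these without Ikzf1 and also Msx2, Enpp1, Tgfbr1, Lgals3 and Inhbb. The cause of these changes was not tested. Dim probes (Runx3, Runx2 bases 957 and 1708) have low signals, which limit how large a fall can be seen. All of them were well above background on all 8 arrays.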
